A study of Mus musculus with 50 samples.

Results

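The collagen genes of the mouse digit were taken as every gene of the digit tables whose symbol reads Col, a number, the letter a and a number. The rule found 44 genes of 21954 in the tables. They were followed in 41 RNA-seq libraries, 1 per amputated digit, from male C57Bl/6 mice of 9 to 10 weeks in which the distal phalanx (P3) of hindlimb digit 3 was cut on both sides. The labels name no allele and no agent beside the amputation in either group. In 29 digits (NR, non-regenerative) the labels give a removed length of 60 to 80% of P3, and they were collected at 0, 3, 6, 12 and 24 h and 3, 7, 14 and 21 d with 3 digits each and 5 at 7 d. In 12 digits (Int, intermediate, marked as medium in the labels) 41 to 55% was removed, and 3 digits each were collected at 0 h, 24 h, 14 d and 21 d. The skin was not sutured in either group, and the 0 h digits, collected at the time of the cut, are the reference. The labels describe the sampled tissue as mixed cells of the wound bed. The study set the non-regenerative limit at a removed length above 67%, which 17 of the 29 NR digits exceed by their labels, 1 equals and 11 fall below. The labels give each digit a mark, a date and a side but name no animal, so p-values measure the spread between these digits. Some digits carry the same mark, date and side in the labels, namely NR 14 d replicate 3 and Int 14 d replicate 1, NR 3 d replicate 3 and NR 7 d replicate 1, Int 0 h replicates 2 and 3 with NR 12 h replicates 1 and 2, and NR 0 h replicate 1 and NR 12 h replicate 3. The first of these pairs lies within the comparison of Int with NR at 14 d, and the last within that of 12 h with 0 h. The pairs of NR digits also lie within the fit over the NR times. Whether such digits share an animal is not given in the sources used here.

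Collagens are secreted or membrane-bound proteins built from several chains that wind into a triple helix, and a gene of this family encodes a single chain. The fibrillar collagens are cleaved outside the cell and packed into the fibrils that give skin, tendon and bone their tensile strength, while other members coat those fibrils (FACIT), form the sheet of basement membranes, make beaded filaments, or anchor the epidermis to the dermis. In a skin wound, fibroblasts lay down a new collagen matrix after the inflammatory phase, and in a healing phalanx osteoblasts lay down type I collagen as bone matrix.

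By class, 11 of the 44 genes were fibrillar, 9 FACIT, 6 basement membrane, 6 beaded filament, 4 transmembrane, 3 short-chain network, 2 multiplexin, 1 anchoring fibril and 2 others. A filter on low counts over the NR digits left 40 of them for testing. The 4 that did not pass were Col19a1, Col6a4, Col6a5 and Col6a6, whose highest raw counts in any digit were 10, 11, 3 and 65.

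Libraries held from 1468749 to 13011782 counts with a median of 6835347. NR 7 d replicate 2 had the fewest detected genes (10072), and NR 14 d replicate 2 lay at the largest rank-correlation distance from its replicates (0.32 at the nearest, against 0.256 for NR 7 d replicate 2 and at most 0.166 for any other digit). In NR 14 d replicate 2 the deviation of the 40 tested collagen genes from the other 2 digits of 14 d rose with the GC content of their transcripts (Spearman's rho 0.80 across genes, which are not independent). Results that rest on these 2 digits are given with and without them. The dates in the labels, which are not said to be those of any step, fall into an earlier period (24 digits) and a later one (17 digits). All NR 21 d digits are of the later period and all Int 21 d digits of the earlier one, so period and group cannot be told apart at 21 d. With the later period alone, an alternative chosen after seeing the data, edgeR called 6 members higher at 21 d (3 digits) and none at 7 d (3 digits, 12 at an unadjusted p below 0.05) against the 2 digits of 0 h. Over all genes, 30 of 13998 were higher and 7 lower at 21 d. At 7 d none of 13470 genes was called and 620 had an unadjusted p below 0.05. Markers of keratinocytes summed to 32131 to 92879.6 CPM in the NR digits over 3 h to 24 h and 7 d to 21 d, and markers of fibroblasts (399 to 2122 CPM), osteoblasts (5.75 to 715 CPM) and endothelium (62.9 to 296 CPM) were also present. CPM gives a gene's count relative to the size of its library, after scaling by the trimmed mean of M values (TMM).

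Promoter stretches of 4 members are shown because these genes turn on the main patterns below: Col3a1 and Col5a1 rose late, Col7a1 was lower at 12 h and 24 h and rose late, and Col10a1 fell late. Each is the 200 bases before the gene start from RefSeq (GRCm38.p6), written 5′ to 3′ on the gene's strand, with the letters TATAAA in capitals where they occur.
Col3a1 promoter (chr1:45311338-45311537, plus strand): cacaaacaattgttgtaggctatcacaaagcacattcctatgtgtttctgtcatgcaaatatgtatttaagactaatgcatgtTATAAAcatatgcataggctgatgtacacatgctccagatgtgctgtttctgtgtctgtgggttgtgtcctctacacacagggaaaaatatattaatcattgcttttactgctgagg
Col5a1 promoter (chr2:27886225-27886424, plus strand): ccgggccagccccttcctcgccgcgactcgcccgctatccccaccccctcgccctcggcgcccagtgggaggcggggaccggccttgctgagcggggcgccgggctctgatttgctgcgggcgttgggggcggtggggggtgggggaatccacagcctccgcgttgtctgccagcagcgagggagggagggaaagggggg
Col7a1 promoter (chr9:108953386-108953585, plus strand): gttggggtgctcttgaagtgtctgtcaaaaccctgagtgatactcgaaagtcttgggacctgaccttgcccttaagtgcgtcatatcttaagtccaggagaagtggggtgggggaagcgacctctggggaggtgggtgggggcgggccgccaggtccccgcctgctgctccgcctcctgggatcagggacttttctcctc
Col10a1 promoter (chr10:34389781-34389980, plus strand): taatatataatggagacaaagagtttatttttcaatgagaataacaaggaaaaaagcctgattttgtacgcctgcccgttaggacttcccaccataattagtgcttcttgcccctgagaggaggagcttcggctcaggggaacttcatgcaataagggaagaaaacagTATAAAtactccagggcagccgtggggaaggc
In Col3a1 the TATAAA letters start 117 bases before the gene start and in Col10a1 32 bases before it. RefSeq promoter entries matched 35 of the 44 members. Within the 250 bases before the start and on both strands, TATAAA was found in 14.3% of the members and in 14.3% of 27025 genes. The CCAAT letters were found in 37.1% of the members and 37.5% of all genes, the AP-1 letters TGACTCA in 2.86% and 5.16%, and the GC box GGGCGG in 60% and 35.4%. A match describes letters only.

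Collagen transcripts were a small part of the library at 0 h and took a larger part from 7 d on. The 44 genes took 0.521 to 0.866% of all counts in the NR 0 h digits, 0.320 to 0.538% at 24 h, 0.628 to 1.73% at 3 d, 0.727 to 6.19% at 7 d, 4.58 to 7.65% at 14 d and 2.16 to 4.44% at 21 d. In Int digits they took 0.548 to 1.26% at 0 h, 0.545 to 0.662% at 24 h, 3.24 to 7.36% at 14 d and 2.82 to 6.37% at 21 d. Every digit of 14 d and 21 d in both groups lay above every digit of 0 h and 24 h. Of the collagen counts, Col1a1, Col1a2 and Col3a1 together took 47.9 to 55.9% in NR 0 h digits, 22.9 to 65.4% over 3 h to 24 h and 65.8 to 79.1% over 7 d to 21 d. In bulk tissue, a change in the number of cells of a type and a change in the RNA per cell cannot be told apart.

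On the per-length scale (the authors' normalized TPM, the median over 41 digits), Col3a1 was the most abundant member with 1893, followed by Col1a2 with 639, Col17a1 with 599.6 and Col1a1 with 393. The leading members of the other classes were Col4a1 with 148, Col6a1 with 137, Col7a1 with 133, Col18a1 with 75, Col16a1 with 62.9, Col8a1 with 17.6 and Col28a1 with 6.1. A median of at least 1 was reached by 36 members and of at least 10 by 24.

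**Figure D1:**
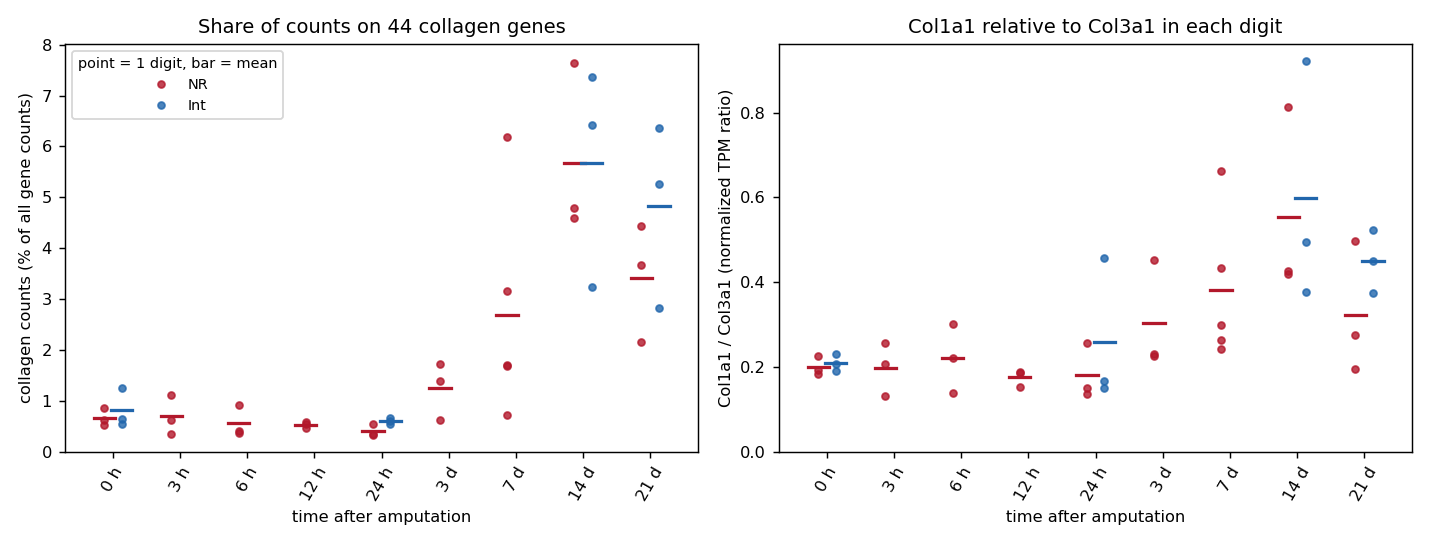
The left panel plots the share of all gene counts on the 44 collagen genes (percent) and the right panel the ratio of Col1a1 to Col3a1 in normalized TPM, both against time after amputation, with 1 point per digit and bars at the group means. NR digits are red and Int digits blue, and in the left panel the 14 d and 21 d digits of both groups, from 2.16 to 7.65%, lie above every digit of 0 h and 24 h.

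To ask which members changed over the NR course, 9 time points were compared in 1 edgeR quasi-likelihood fit over all 14434 genes, where a call needed a Benjamini-Hochberg (BH) adjusted p below 0.05 and more than 2-fold between group means. Of the 40 tested members 25 changed, against 7.6% of all genes. Every class had at least 1: 9 of 11 fibrillar, all 3 tested beaded filament, 3 of 8 FACIT, 2 of 6 basement membrane, 2 of 3 short-chain, 2 of 4 transmembrane, both multiplexins, Col7a1 and Col26a1.

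The contrast with the most directional calls was between the first day (3 h to 24 h, early, 12 digits) and 7 d to 21 d (late, 11 digits). These phases were set with earlier results of these data known, and 3 d was left between them. In it 22 members rose and 2 fell, against 6.05% of all genes that rose and 2.49% that fell. The median change on the log2 scale was 1.61 over the 40 members and 0.09 over all genes, and under the relative log expression (RLE) scaling the latter was 0.24. Of these 24 members, 23 were called with any 1 of the 29 NR digits left out, the exception being Col4a3. The 22 that rose had a higher late mean within the earlier period (3 late and 10 early digits, differences of 1.09 to 4.90 on the log2(CPM + 1) scale) and within the later (8 and 2 digits, 1.22 to 4.28), and the 2 others were lower within each. The members were called from these same digits, so the signs within the periods are a description and not a separate test.

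Late digits all lay above early digits for 3 members (Col1a1, Col6a2 and Col12a1), against 0.306% of 13717 genes, and for none the late digits all lay below (0.211%). Without the 2 digits that stood apart this held for 15 members, against 0.887% of 13640 genes (0.601% of genes lay below, and no member). Against 0 h, the late digits were higher in 10 members and lower in none (0.402% and 0.208% of all genes): Col12a1, Col1a1, Col1a2, Col24a1, Col3a1, Col5a1, Col5a2, Col6a1, Col6a2 and Col6a3. This count was 17 without the 2 digits that stood apart (16 without NR 7 d replicate 2 alone), and 1 without any 1 of the 3 NR 0 h digits.

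**Figure D2:**
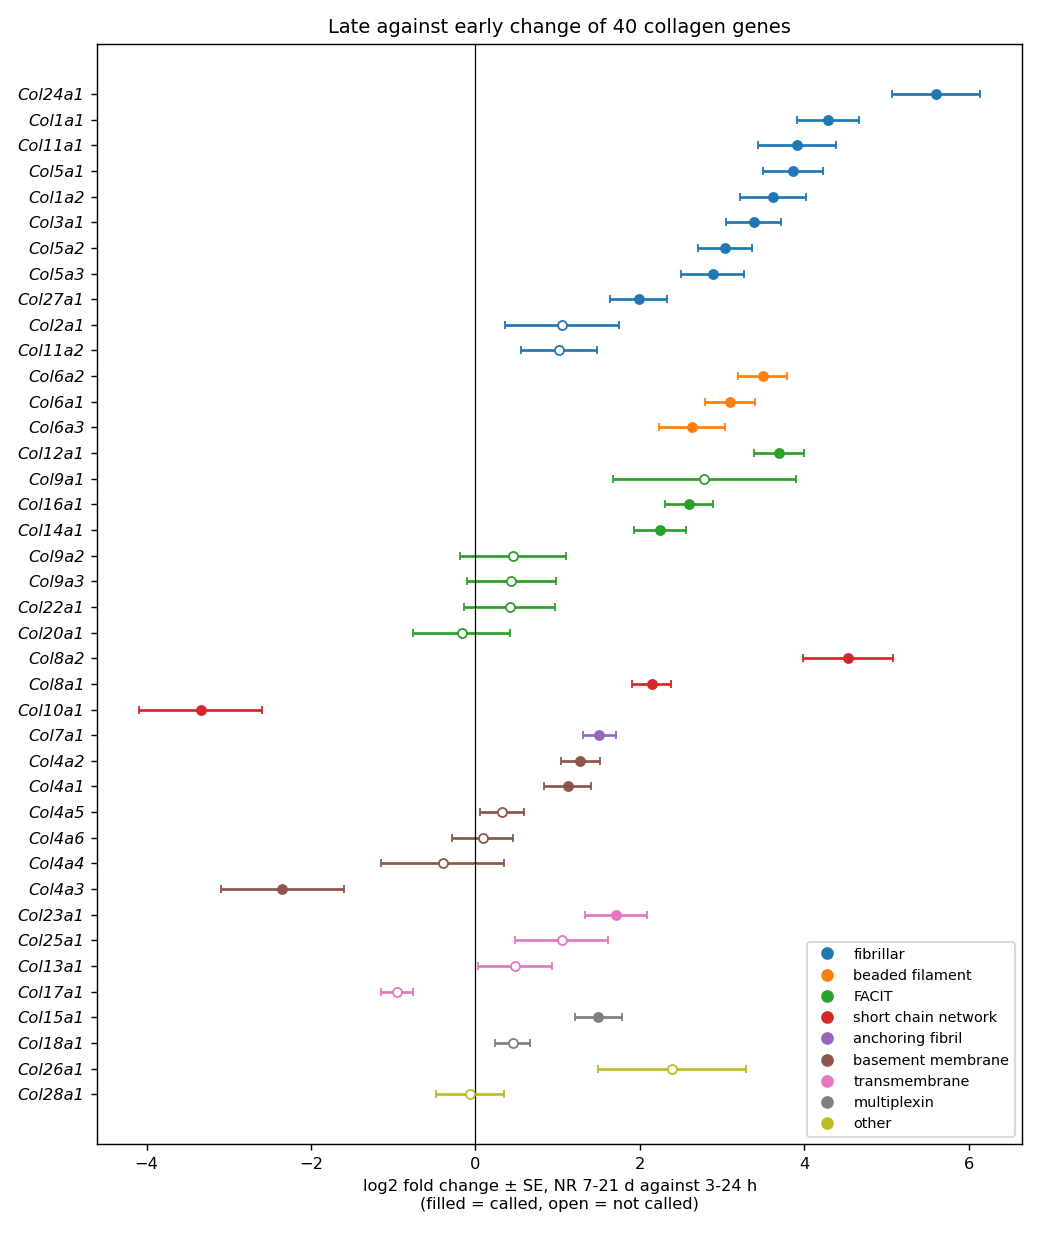
For the 40 tested collagen genes in rows grouped by class, the horizontal axis gives the log2 fold change of NR digits at 7 to 21 d against 3 to 24 h with its SE, filled where the gene was called. Among the fibrillar genes 9 of 11 are filled to the right of 0, and Col10a1 and Col4a3 are the 2 filled points to the left of 0.

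Of the 22 genes that rose late, 9 were fibrillar. Col1a1, the major chain of type I collagen in skin and bone, was at 948, 534 and 661 CPM in the 3 NR digits at 0 h, 129, 288 and 388 at 24 h and 3879.5, 1031 and 2250.0 at 3 d. It was at 6185, 3163, 4153, 11463 and 4928 CPM at 7 d, 18658, 22776 and 11150.0 at 14 d and 8678, 3953 and 6796 at 21 d. Each digit from 7 d on stood above all digits of 0 h to 24 h. The late against early log2 fold change was 4.29 ± 0.38 (SE, BH adjusted p = 1.06e-08 by edgeR's quasi-likelihood test), a 20.8-fold ratio of means.

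Col1a2, which encodes the other chain of type I collagen, was at 1410.3, 849.7 and 1042 CPM at 0 h, 204, 368 and 608 at 24 h, 5698, 1508, 3483, 14121 and 3306 at 7 d, 20423, 19308 and 10728 at 14 d and 10317, 5055 and 10499 at 21 d. One digit of 7 d, the replicate 2 that stood apart, fell within the range of the early digits (204 to 2589 CPM). Col3a1, the fibrillar collagen of granulation tissue and vessel walls, was at 1818, 1212 and 1586 CPM at 0 h, 429, 512 and 981 at 24 h, 9614, 2191, 5034, 19027 and 4408 at 7 d, 17431, 13152 and 11544 at 14 d and 7547, 6549 and 13494 at 21 d. Again only NR 7 d replicate 2 lay within the early range (429 to 2723 CPM). The log2 fold changes were 3.62 ± 0.40 for Col1a2 and 3.39 ± 0.33 for Col3a1 (adjusted p = 5.13e-07 and 7.29e-08, edgeR).

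Type V collagen, which starts fibrils together with type I and limits their width, rose in all 3 chains. The log2 fold changes were 3.86 ± 0.36 for Col5a1, 3.03 ± 0.33 for Col5a2 and 2.88 ± 0.38 for Col5a3. In Col5a3 the late digits ranged from 9.25 to 609.5 CPM with a median of 164, against 14.5 to 46.5 CPM early, and only NR 7 d replicate 2 of the late digits lay below the highest early digit. Col24a1, a minor fibrillar collagen, had the largest fitted rise (5.61 ± 0.54, adjusted p = 7.9e-08, edgeR), with a ratio of means of 18.9-fold. It had 0 counts in all 3 digits of 3 h, so the fitted value rests in part on the prior count. Col24a1 was at 2.73, 3.33 and 3.68 CPM at 0 h, 72.1, 2.42 and 33.8 at 14 d and 35.2, 27 and 49.5 at 21 d. Of these late digits only NR 14 d replicate 2 was below the 0 h digits.

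Col11a1, a chain of cartilage fibrils that is also made by bone-forming cells, was at 24.4, 13.7 and 17.6 CPM at 0 h, 4.75, 9.19 and 3.23 at 24 h, 567.7, 62.6 and 274 at 14 d and 251, 183 and 276 at 21 d. All 14 d and 21 d digits lay above those of 0 h and 24 h, and the log2 fold change late against early was 3.91 ± 0.48 (adjusted p = 2.52e-06, edgeR). Col27a1, a fibrillar collagen of cartilage, rose by 1.99 ± 0.34 on the log2 scale. The 2 fibrillar members that were not called are also cartilage genes. Col2a1, the main fibrillar collagen of cartilage, had 1.06 ± 0.69 late against early (adjusted p = 0.333, edgeR) and Col11a2 had 1.02 ± 0.46 (adjusted p = 0.147). Col2a1 was at 26.6, 12.2 and 3.68 CPM at 0 h, 0, 0.841, 3.38, 15 and 14.2 at 7 d, 9.22, 185 and 32 at 14 d and 61.9, 1.63 and 17.4 at 21 d. Its digits overlapped between all these times, and the highest, NR 14 d replicate 2, is a digit that stood apart. Without NR 14 d replicate 2 its log2 fold change was 0.45.

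**Figure D3:**
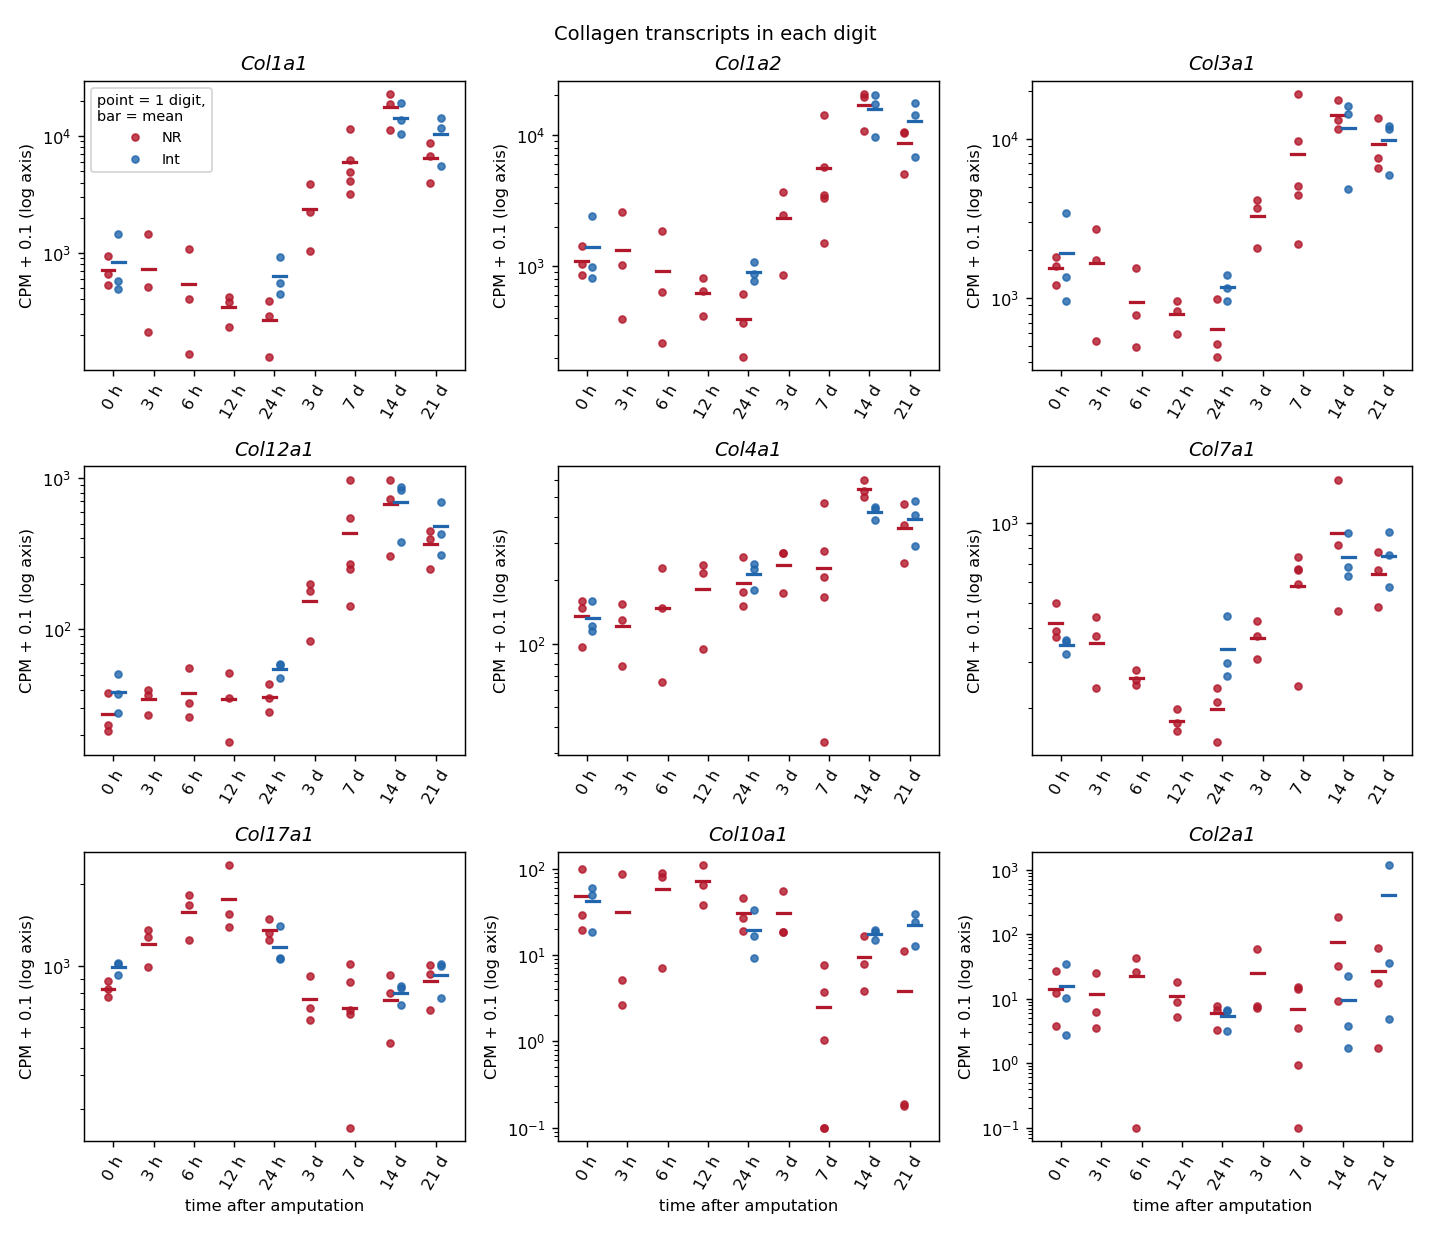
Each panel plots 1 collagen gene in CPM + 0.1 on a log axis against time after amputation, with 1 point per digit, bars at the group means, NR in red and Int in blue. In NR, the means of Col1a1, Col1a2 and Col3a1 are lowest at 24 h and highest at 14 d, that of Col17a1 is highest at 12 h, and Col10a1 falls to 0 to 16.3 CPM in the late NR digits.

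The chains did not rise by the same factor. On the normalized TPM scale, where a ratio within a digit does not depend on the library's scaling, Col1a1 per Col3a1 was 0.183 to 0.227 in the NR 0 h digits, 0.132 to 0.302 in early and 0.195 to 0.814 in late digits. The means were 0.194 ± 0.0556 (SD, n = 12) early and 0.412 ± 0.19 (SD, n = 11) late, with overlapping ranges. A two-sided permutation test on the log2 ratio gave p = 2.4e-04 (adjusted 0.00108 over 9 such tests), and an exact permutation test without the 2 digits that stood apart p = 6.4e-04 (adjusted 0.00192). In Int digits the mean ratio was 0.233 ± 0.113 at 0 h and 24 h and 0.524 ± 0.204 at 14 d and 21 d (n = 6 each, exact permutation p = 0.00866, adjusted 0.0156), with 1 digit of 24 h (0.457) inside the late range. The late mean was above the early one within the earlier period (0.311 against 0.185) and within the later (0.450 against 0.238). The ratios were chosen after the values were seen.

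Col1a2 per Col1a1 moved the other way, from 2.10 ± 0.404 early to 1.23 ± 0.459 late in NR digits (adjusted permutation p = 0.00108), with a late range of 0.529 to 2.14 that overlapped the early 1.44 to 2.56. Without the 2 digits that stood apart the late mean was 1.34 ± 0.422 (exact permutation p = 8.7e-04, adjusted 0.00196). The late mean was below the early one within the earlier period (1.52 against 2.19) and within the later (1.124 against 1.60). In Int digits it was 2.110 ± 0.379 at 0 h and 24 h and 1.54 ± 0.279 at 14 d and 21 d (exact permutation p = 0.0216, adjusted 0.0325). The transcripts differ in GC content, 58.9% for Col1a1 against 55.7% for Col1a2 and 52.5% for Col3a1, and the part of GC content in these ratios was not tested.

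In the first day more members were lower than higher against 0 h. At 3 h none of 36 members was called by edgeR (1 by DESeq2), and so was none of 12562 genes. An unadjusted p below 0.05 was found for 7 members, against 10.8% of all genes. At 6 h 2 of 39 were lower than at 0 h, Col5a3 and Col28a1, and none higher (1.62% and 3.23% of all genes). At 12 h 9 of 37 were lower and 2 higher (4.64% and 6.76%), and at 24 h 14 of 39 were lower and none higher (5.14% and 5.57%). With the 12 early digits pooled in the fit over 9 times, none of 40 was called against 0 h (0.61% and 0.346% of all genes), and DESeq2 called 1. In that contrast 9 members had an unadjusted p below 0.05, against 11.3% of all genes.

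The members lower at 24 h were Col11a1, Col1a1, Col1a2, Col3a1, Col5a1 and Col5a3 of the fibrillar class, Col4a5 and Col4a6, Col6a1 and Col6a2, Col14a1 and Col16a1, Col7a1 and Col28a1. Col1a1 had a log2 fold change of -1.40 ± 0.39 (edgeR, adjusted p = 0.0437), with no overlap between the digits of 0 h and 24 h. Col3a1 changed by -1.26 ± 0.34 (adjusted p = 0.037) and Col1a2 by -1.48 ± 0.39 (adjusted p = 0.0347). Beside them, summed fibroblast markers were 565 to 1161 CPM at 0 h and 401 to 700.1 CPM at 24 h, summed mural cell markers 557 to 1141 and 340.0 to 379 CPM, and summed neutrophil markers 13.7 to 19.8 and 333 to 495 CPM. The part of these cells in the fall was not tested.

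Without 1 digit, the count at 24 h was 6 without NR 0 h replicate 3 and 6 without NR 24 h replicate 1. The count at 12 h was 3 without NR 0 h replicate 2, 4 without NR 0 h replicate 3, and 6 without NR 12 h replicate 1 or without NR 12 h replicate 3. The calls at 6 h were 1 or 0 without any 1 of the 6 digits. With all 41 digits in 1 fit, which share 1 spread, 2 members were called at 12 h and 1 at 24 h.

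The basement membrane collagens split along their chains. Col4a1 and Col4a2, the chains of every basement membrane, rose late, with log2 fold changes of 1.123 ± 0.29 and 1.27 ± 0.24 (edgeR, adjusted p = 0.0086 and 0.000573). Col4a1 was at 159.5, 96.7 and 148 CPM at 0 h, 151, 175 and 258 at 24 h, 275, 33.9, 207, 467 and 166 at 7 d, 500.2, 603 and 529.7 at 14 d and 459.7, 242 and 365 at 21 d. The 14 d digits were all above those of 0 h and 24 h, and NR 7 d replicate 2 was the lowest of all. In NR 7 d replicate 2 the ratio of Col4a2 to Col4a1 in normalized TPM was 17.0, against 0.279 to 0.576 in the other early and late NR digits. In CPM that digit had 109 for Col4a2 and 33.9 for Col4a1, and the ratio in CPM was not tested. The late and early means in normalized TPM were 0.359 and 0.425 within the earlier period. Within the later period, which holds that digit, they were 2.43 and 0.356. Late against early this ratio had an adjusted permutation p of 0.933 with all digits. Without the 2 digits that stood apart it was 0.340 ± 0.0509 late (n = 9) and 0.414 ± 0.0874 early (n = 12), with an adjusted exact permutation p of 0.0449.

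Col4a5 and Col4a6, chains of specialized basement membranes such as that of the epidermis, were lower at 12 h and 24 h and did not pass the late against early test. Col4a6 was at 41.5, 65.9 and 57 CPM at 0 h, 12.7, 22.7 and 14.9 at 12 h, 12.1, 12.8 and 10.2 at 24 h, 20.6, 15.8 and 23.1 at 3 d and 47, 43.4 and 51.8 at 21 d. The 12 h, 24 h, 3 d and 7 d digits all lay below the 0 h ones, those of 7 d at 32.3, 0.21, 23.4, 28.1 and 17 CPM. The 14 d digits were at 45.7, 4.47 and 16.8 CPM, and those of 21 d were within the 0 h range. The values of 0.21 and 4.47 CPM belong to the 2 digits that stood apart. The log2 changes against 0 h were -1.68 ± 0.28 at 12 h (adjusted p = 0.00676), -2.21 ± 0.23 at 24 h (0.00096) and -1.49 ± 0.25 at 3 d (0.0429, edgeR). Col4a6 late against early was 0.09 ± 0.37, and its sign changed under 3 alternatives. Col4a5 was at 46.7, 69.3 and 60.7 CPM at 0 h and at 85.8, 76.3 and 94.2 CPM at 3 h, where every digit lay above those of 0 h but the change of 0.53 ± 0.22 was not called (adjusted p = 0.448, edgeR). Col4a5 fell by 1.82 ± 0.30 at 24 h (adjusted p = 0.00597). Col4a3 and Col4a4 were near the limit of detection, with medians of 0.197 and 0.16 normalized TPM, and the fall called for Col4a3 late (-2.35 ± 0.75, adjusted p = 0.0384) rests on at most 31 counts in a digit.

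The 2 collagens that hold the epidermis to the dermis behaved differently. Col17a1, a transmembrane collagen of keratinocyte hemidesmosomes, was at 886, 828 and 771 CPM at 0 h, 1280.0, 1356 and 997 at 3 h, 1827, 1685 and 1245 at 6 h, 2356, 1559 and 1400.2 at 12 h and 1326, 1254 and 1492 at 24 h. Every digit of 3 h to 24 h stood above every digit of 0 h. At 12 h the log2 change was 1.114 ± 0.24 (adjusted p = 0.0164, edgeR), the larger of the 2 rises called among the members at that time. It was then at 925, 636 and 706 CPM at 3 d, 1020.3, 256, 691, 666 and 876 at 7 d, 932, 797 and 524 at 14 d and 1009.6, 939 and 694 at 21 d, and each of these times overlapped the 0 h digits or lay on both sides of them. Late against early it changed by -0.96 ± 0.20 (adjusted p = 0.00142), with a ratio of means of 0.512 that just missed the 2-fold limit. Summed keratinocyte markers were 38194 to 83039 CPM at 0 h and 34443 to 44487 at 12 h, where Col17a1 was highest.

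Col7a1, the anchoring fibril collagen, was at 372, 391 and 499 CPM at 0 h, 164, 177 and 199 at 12 h, 238, 149 and 211 at 24 h, 425, 308 and 375 at 3 d and 777, 663 and 481 at 21 d. The 12 h and 24 h digits lay below all of 0 h and 2 of the 3 digits of 21 d lay above them. The log2 changes were -1.20 ± 0.19 at 12 h, -1.07 ± 0.23 at 24 h (adjusted p = 0.00571 and 0.0164) and 1.51 ± 0.20 late against early (adjusted p = 8.22e-06, edgeR). Against 0 h the late level was 0.71 ± 0.32 (adjusted p = 0.885), which did not pass. Of the other transmembrane members, Col23a1 rose late by 1.71 ± 0.38 while Col13a1 and Col25a1 had 0.48 ± 0.45 and 1.05 ± 0.57 and did not pass.

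The 3 abundant type VI chains, which form beaded filaments around cells, rose together. Col6a1 was at 193, 162 and 184 CPM at 0 h, 39.6, 74.4 and 87.2 at 24 h, 490.1, 202, 667, 1240.2 and 497 at 7 d, 1316, 2376 and 965 at 14 d and 882, 517 and 1083 at 21 d. All 24 h digits lay below and all 7 d to 21 d digits above those of 0 h. The late against early log2 fold changes were 3.10 ± 0.30 for Col6a1, 3.49 ± 0.30 for Col6a2 and 2.63 ± 0.40 for Col6a3. In the first day they parted, since at 12 h Col6a3 was higher than at 0 h with 1.007 ± 0.20 (adjusted p = 0.0123), while Col6a1 and Col6a2 were at -0.94 ± 0.23 and -0.62 ± 0.20 and were lower at 24 h, with -1.41 ± 0.28 and -1.23 ± 0.28 (adjusted p = 0.0125 and 0.0204, edgeR).

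Among the FACIT genes, whose products sit on the surface of fibrils, Col12a1, Col14a1 and Col16a1 rose late and the 3 type IX chains, Col20a1 and Col22a1 were not called. Col12a1, a fibril-bound collagen of dense connective tissue and periosteum, was at 37.6, 21.2 and 23.3 CPM at 0 h, 28.3, 43.6 and 35 at 24 h, 198, 83.7 and 179.8 at 3 d, 546, 142, 269.7, 967 and 252 at 7 d, 976, 307 and 723 at 14 d and 396, 252 and 449 at 21 d. Every digit from 3 d on lay above every earlier digit. It was the only member called higher at 3 d (2.47 ± 0.37, adjusted p = 0.0232), against 0.557% of all genes, and Col4a6 the only one lower, against 0.166%. The 3 d count of 2 became 0 without NR 0 h replicate 2, NR 0 h replicate 3, NR 3 d replicate 1 or NR 3 d replicate 3, and 5 without NR 3 d replicate 2. DESeq2 called 7. Against 0 h, Col12a1 had a late log2 fold change of 4.09 ± 0.57 (edgeR, adjusted p = 0.000148), the largest among the members called there.

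Col16a1, the most abundant FACIT gene per length, was at 96.8, 94.2 and 109.7 CPM at 0 h, 35.8, 51.5 and 48.8 at 24 h, 561, 1431 and 302 at 14 d and 446, 227 and 455 at 21 d. Its 24 h digits lay below and its 14 d and 21 d digits above those of 0 h, and it changed by 2.60 ± 0.29 late against early (adjusted p = 6.44e-07, edgeR) and by -1.13 ± 0.18 at 24 h against 0 h. Col14a1, a fibril-bound collagen of skin and tendon, changed by -2.05 ± 0.38 at 24 h (adjusted p = 0.0101) and by 2.25 ± 0.32 late against early (adjusted p = 1.85e-05). The type IX chains of cartilage had late against early values of 2.78 ± 1.1, 0.45 ± 0.64 and 0.43 ± 0.54 for Col9a1, Col9a2 and Col9a3, and Col9a3 shares exons with Tcfl5 on the other strand.

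Col10a1 ran against the family. It is the collagen of hypertrophic cartilage, and its exons overlap those of Nt5dc1 on the other strand, so without strand the reads of the 2 cannot be told apart. It was at 97.9, 28.5 and 19.3 CPM at 0 h, 65, 37.5 and 109.9 at 12 h, 18.8, 26.5 and 45.6 at 24 h and 18.5, 18.1 and 55.3 at 3 d. It was at 0, 0, 3.65, 7.52 and 0.944 CPM at 7 d, 16.3, 3.73 and 7.8 at 14 d and 11.1, 0.0776 and 0.0886 at 21 d. All digits of 7 d, 14 d and 21 d were below the lowest 0 h digit. The 3 h digits (2.55, 4.96 and 86 CPM) and the 6 h digits (89.1, 6.9 and 78.9 CPM) spread over both ranges. The log2 change was -3.34 ± 0.75 late against early (adjusted p = 0.00312, edgeR) and -3.48 ± 0.91 late against 0 h (adjusted p = 0.0841), the second of which did not pass.

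The other short-chain collagens, which form the sheets under endothelium, rose late. Col8a1 was at 50.6, 53.6 and 49 CPM at 0 h, 12.5, 26.8 and 22.3 at 12 h, 210.4, 35.4 and 161 at 14 d and 135, 159 and 208 at 21 d. Of the late digits of these 2 times only NR 14 d replicate 2 was not above the 0 h digits. Col8a2 was at 7.28, 3.24 and 4.44 CPM at 0 h, 0.208, 0.897 and 0.762 at 12 h, 6.82, 0.21, 8.39, 18.7 and 9.68 at 7 d, 99.8, 169 and 45.1 at 14 d and 68.8, 20.2 and 48.1 at 21 d. Its 12 h digits were below all those of 0 h (-2.88 ± 0.67, adjusted p = 0.022, the largest fall among the called members at 12 h) and its 14 d and 21 d digits above them. The late against early log2 changes were 2.14 ± 0.24 and 4.53 ± 0.55 (adjusted p = 4.8e-07 and 1.99e-06, edgeR).

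The multiplexins, basement membrane collagens whose ends are released as fragments, differed in their course. Col18a1 was at 131, 135 and 157 CPM at 0 h, 347, 226 and 259 at 12 h, 211, 229 and 321 at 24 h, 276, 875 and 271 at 14 d and 242, 169 and 204 at 21 d. Its 12 h and 24 h digits lay above all of 0 h, and NR 14 d replicate 2 was the highest. It changed over the course, but its late against early value of 0.46 ± 0.21 did not pass (adjusted p = 0.158). Col15a1 rose by 1.495 ± 0.28 (adjusted p = 0.000627, edgeR). Col28a1, a collagen of peripheral nerve, was at 26, 26.4 and 33.3 CPM at 0 h, 14.7, 13.2 and 9.09 at 6 h, 5.61, 14.5 and 8.38 at 12 h, 10.45, 11.6 and 16 at 24 h and 20.6, 8.07 and 31.6 at 21 d. The digits of 6 h, 12 h and 24 h all lay below those of 0 h (log2 change -1.22 ± 0.25, -1.55 ± 0.35 and -1.17 ± 0.24, adjusted p = 0.0322, 0.0197 and 0.0149). Beside it, summed Schwann cell markers were 144 to 233 CPM at 0 h and 106 to 121 CPM at 24 h, and their part was not tested. Col26a1, called over the course, was at 172 CPM in NR 7 d replicate 2, against 0 to 10.9 CPM in every other digit.

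**Figure D4:**
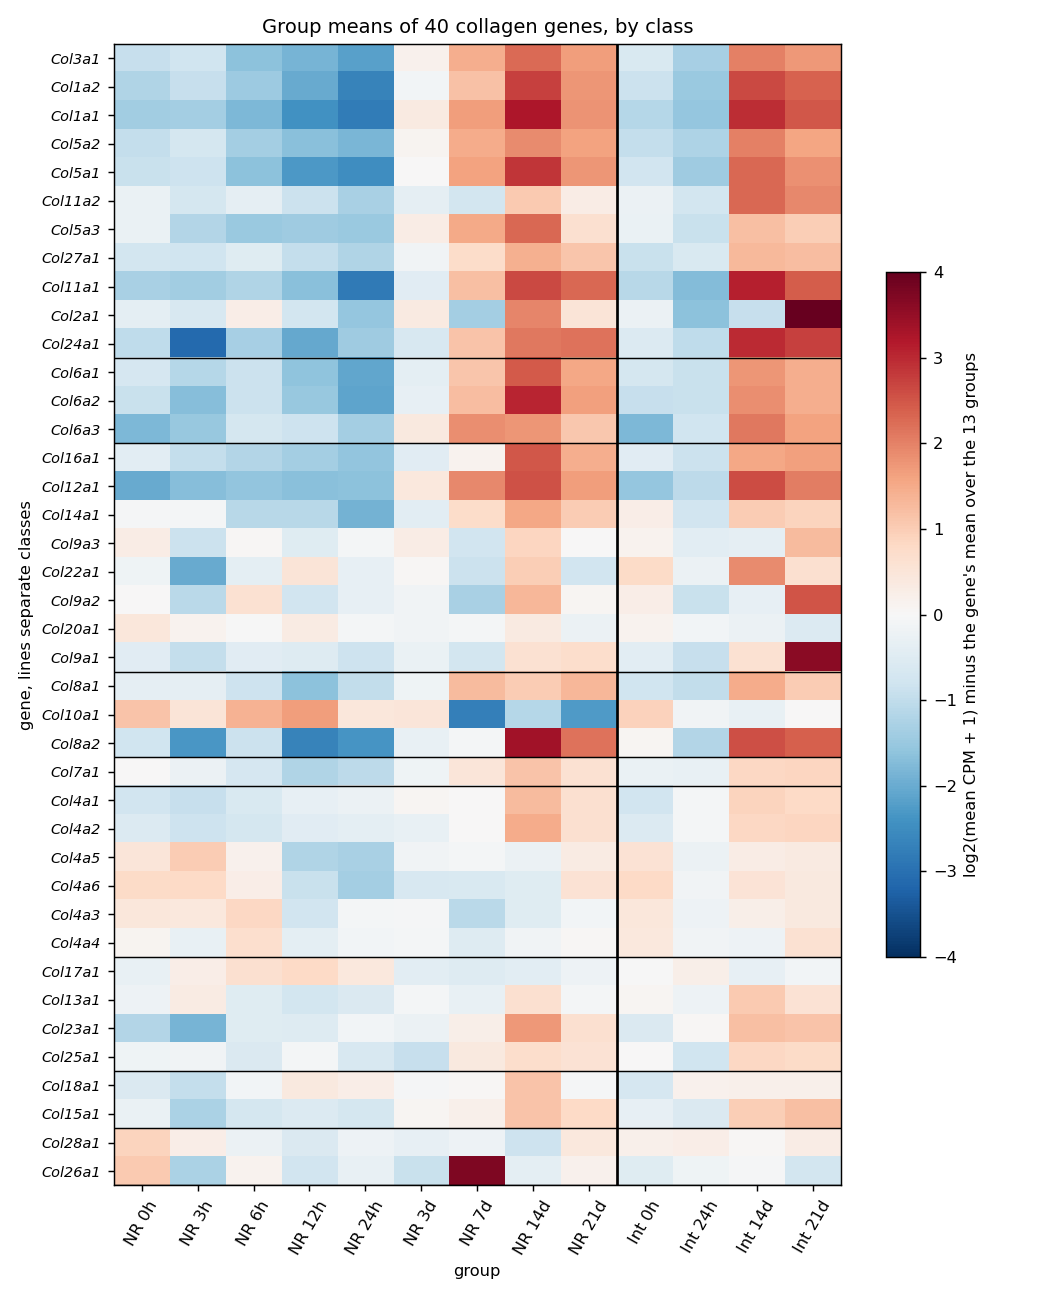
Rows are the 40 tested collagen genes grouped by class, columns the 9 NR and 4 Int groups, and color gives log2(mean CPM + 1) of the group minus the gene's mean over the 13 groups. The 9 called fibrillar rows and the 3 beaded filament rows go up between 24 h and 14 d, while the Col10a1 row goes down in the late NR groups, where its digits lie at 0 to 16.3 CPM.

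Time by time against 0 h, the late rise was called at 21 d, and the counts at 7 d, 14 d and 21 d all depended on single libraries. At 7 d none of 37 members passed by edgeR (0.0307% of all genes higher and 0.023% lower), and 14 had an unadjusted p below 0.05 (4.34% of all genes). DESeq2 called 12, and without NR 7 d replicate 2 6 members were higher. At 14 d none of 39 passed by edgeR, nor did any of 13567 genes, and DESeq2 called 18. An unadjusted p below 0.05 was found for 22 members, against 7.7% of all genes. Without NR 14 d replicate 2, 20 members were higher at 14 d and none lower. At 21 d 14 of 39 were higher and none lower (0.394% and 0.0583% of all genes), led by Col12a1 (3.73 ± 0.33, adjusted p = 0.00714), Col11a1 (3.67 ± 0.28, adjusted p = 0.00457) and Col24a1 (3.49 ± 0.28, adjusted p = 0.00457). The count at 21 d was 6, 1 and 0 without NR 0 h replicates 1, 2 and 3, 3 without NR 21 d replicate 1, 7 without NR 21 d replicate 3 and 4 with all 41 digits in 1 fit.

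The Int digits, with less bone removed, also had higher collagen levels late. None of 38 members was called at 24 h by edgeR (0.0152% of all genes higher and 0.0% lower), and DESeq2 called 1. At that time 11 members had an unadjusted p below 0.05, against 15.4% of all genes. At 14 d 21 of 37 were higher and none lower (1.49% and 0.187%), and at 21 d 21 of 38 (1.23% and 0.165%). At both times 9 of 11 fibrillar genes, the 3 tested beaded filament genes, 2 FACIT genes, Col4a1 and Col4a2, Col7a1, Col8a1 and Col8a2, Col15a1 and Col23a1 were higher. Every digit of 14 d and 21 d lay above every digit of 0 h and 24 h in 20 of 40 members with a mean of at least 1 CPM, against 2.95% of 13733 genes, and below in none (1.13%).

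Col1a1 was at 496, 571 and 1455 CPM in Int at 0 h, 916, 446 and 548 at 24 h, 10316, 19015 and 13645 at 14 d and 11632, 5498 and 14160.0 at 21 d. The late digits were all above the early ones, with log2 changes against 0 h of 4.07 ± 0.47 at 14 d and 3.63 ± 0.48 at 21 d (adjusted p = 0.00652 and 0.00635, edgeR). Among the called members, Col11a1 had the largest rise at 14 d (4.30 ± 0.44, adjusted p = 0.00446), from 12.2, 15.3 and 36 to 289, 479.8 and 482 CPM, and Col12a1 at 21 d (3.64 ± 0.33, adjusted p = 0.00177), from 37.1, 27.7 and 50.3 to 429, 311 and 696 CPM. In neither gene did the digits overlap. Col3a1 was at 962, 1354 and 3437 CPM at 0 h, 4855, 16122 and 14242 at 14 d and 11478, 5942 and 11942 at 21 d, and it was called at 21 d (2.35 ± 0.45, adjusted p = 0.037) but not at 14 d (2.60 ± 0.57, adjusted p = 0.0687). Col11a2, called at 14 d (2.58 ± 0.31, adjusted p = 0.00769), was at 14.1, 22.2 and 36.2 CPM at 0 h and 156, 151 and 124 at 14 d, with no overlap.

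The Int counts rested on the spread of 3 digits. At 14 d the count was 3 without Int 0 h replicate 2, 10 without Int 14 d replicate 2, 11 without Int 14 d replicate 3 and 12 in the fit of all 41 digits. At 21 d it was 5 without Int 0 h replicate 2, 11 without Int 21 d replicate 1, 13 without Int 21 d replicate 3 and 5 in the fit of all 41 digits. Summed osteoblast markers were 71.3 to 139 CPM in Int 0 h digits, 679 to 1920.0 at 14 d and 291 to 783 at 21 d. Of these markers 7 of 8 were called higher at 14 d and 6 of 8 at 21 d, against 1.49% and 1.23% of all genes. Summed fibroblast markers were 683 to 1545, 878 to 1994 and 1421 to 2167 CPM. The part of these cells in the rise was not tested.

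To ask whether collagen expression differed with the amputation level, Int and NR digits were compared at the 4 shared times. Date period and group cannot be told apart at 21 d. No member was called by edgeR at 0 h (of 39), 24 h (of 37), 14 d (of 37) or 21 d (of 40), against 0.0% of all genes in each direction at 0 h, 24 h and 14 d and 0.0437% higher and 0.604% lower at 21 d. With the date as a block, an alternative chosen after seeing the data, no member was called by edgeR at 0 h, 24 h or 14 d. Unadjusted p-values below 0.05 were found there for 1 of 39, 12 of 37 and 1 of 37 members. Over all genes these were 1359 of 13500, 1340 of 13024 and 37 of 13421. At an unadjusted p below 0.05 without the block there were 3, 13, 1 and 0 members, and DESeq2 called 0, 1, 0 and 0. The median log2 difference of the members was 0.04 at 0 h, 0.60 at 24 h, -0.18 at 14 d and 0.19 at 21 d, beside medians of all genes of 0.00, 0.02, 0.03 and -0.02. Without Int 24 h replicate 1, 4 members were called at 24 h, and without NR 21 d replicate 1, 1 at 21 d.

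At 24 h, Col6a2 had a log2 difference of 1.26 ± 0.32 (unadjusted p = 0.00415 by edgeR's quasi-likelihood test, adjusted p = 0.313) and Col1a2 of 1.22 ± 0.36 (adjusted p = 0.349). Col1a2 was at 1066, 776 and 875 CPM in Int and 204, 368 and 608 in NR, and Col1a1 at 916, 446 and 548 and 129, 288 and 388. Neither gene overlapped between the groups at 24 h, while both did at 0 h, 14 d and 21 d. Col4a6 was at 15.8, 45.1 and 25.2 CPM in Int and 12.1, 12.8 and 10.2 in NR (log2 difference 1.31 ± 0.37, adjusted p = 0.338). All 3 Int 24 h digits of Col4a6 lay above the NR ones, and the difference did not pass.

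The cartilage collagens had wide differences at 21 d that did not pass the test. At that time all Int digits are of the earlier date period and all NR digits of the later. Col2a1 was at 35.3, 4.65 and 1181 CPM in Int and 61.9, 1.63 and 17.4 in NR (3.88 ± 1.87, adjusted p = 0.401). Int replicate 3 was far above the other 5 digits, which overlapped. The same digit had the highest Col9a1 (3.41, 0.0912 and 63.9 CPM in Int against 3.81, 0.155 and 2.57 in NR) and Col9a2 (5.25, 0.82 and 85.8 against 7.44, 1.78 and 5.49). Col10a1 was at 29.6, 12.7 and 23.9 CPM in Int and 11.1, 0.0776 and 0.0886 in NR at 21 d with no overlap (2.53 ± 1.27, adjusted p = 0.415), and at 18.4, 19.2 and 14.8 and 16.3, 3.73 and 7.8 at 14 d, where the groups overlapped. Summed chondrocyte markers were 175 to 815 CPM in Int and 123 to 571 CPM in NR at 21 d.

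The test of the difference itself, the change from 0 h in Int against that in NR, called none of 41 members at 24 h, 14 d or 21 d by edgeR over 14996 genes (0.0% in each direction), and none by DESeq2. At an unadjusted p below 0.05 there was 1 member at 24 h, Col7a1 (1.03 ± 0.48, unadjusted p = 0.0402, adjusted p = 1), and none at 14 d and 21 d. Col7a1 was at 363, 357 and 320.1 CPM at 0 h and 265, 445 and 297 at 24 h in Int, and at 372, 391 and 499 and 238, 149 and 211 in NR. The NR digits fell without overlap and the Int digits overlapped. For Col1a1 the difference in change at 14 d was -0.53 ± 0.87 and at 21 d 0.45 ± 0.87.

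**Figure D5:**
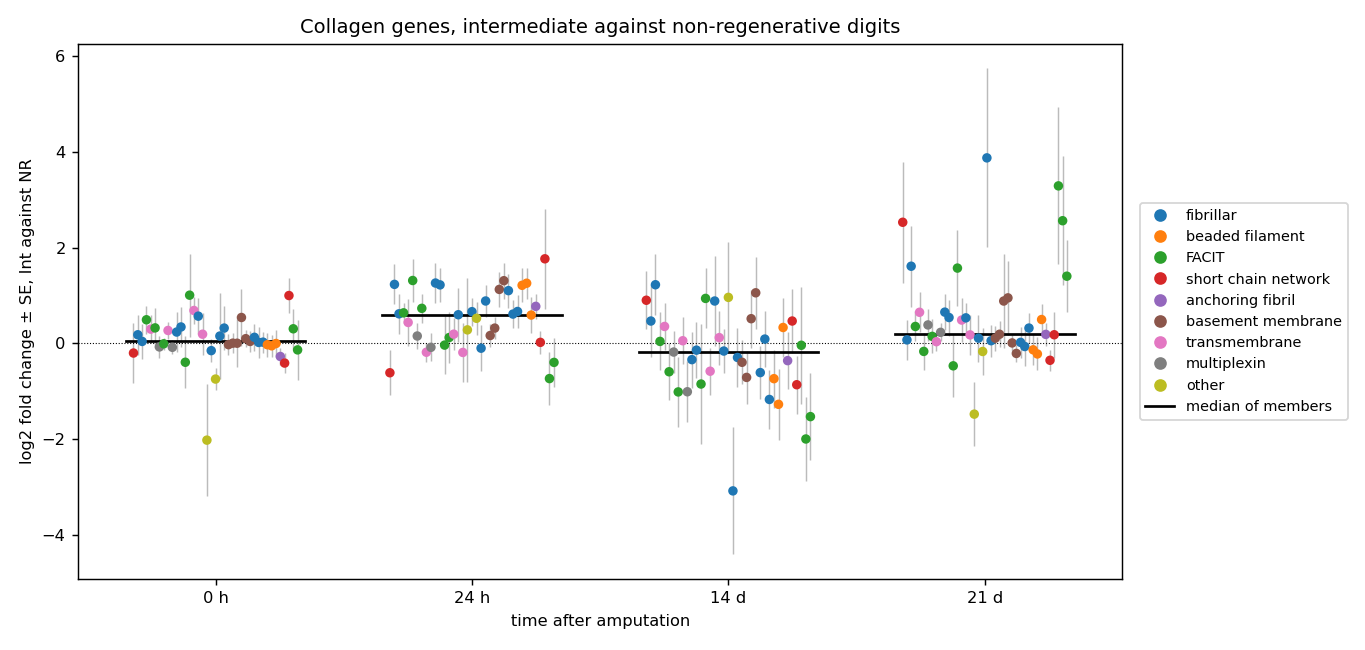
For each shared time, points give the log2 fold change of Int against NR digits for each tested collagen gene with its SE (gray), colored by class, and black bars the median of the members. The medians are 0.04 at 0 h, 0.60 at 24 h, -0.18 at 14 d and 0.19 at 21 d, and no point passed the test.

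Several members lie side by side on a chromosome. Col3a1 (chr1:45311538-45349706, GRCm38, GENCODE vM21) and Col5a2 lie tail to tail 24614 bases apart, and their log2(CPM + 1) over the 41 digits had a Spearman's rho of 0.98. Col4a1 and Col4a2 start head to head on chromosome 8 with 22 shared bases (rho 0.95). Col6a2 and Col6a1 on chromosome 10 run in the same direction 85161 bases apart (rho 0.97). Col4a6 and Col4a5, head to head on chromosome X 1308 bases apart, had a rho of 0.85, and the rarely detected Col4a4 and Col4a3, 71 bases apart, one of 0.45. The digits share the time course, which enters each of these values.

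The genes that make, cut and break down collagen were counted from lists set by their roles. Of 19 genes for folding and crosslinking, 12 rose late against early and none fell, with a median log2 fold change of 1.77. Over all genes 6.05% rose and 2.49% fell in this contrast. Among them were Fkbp10 (2.95 ± 0.46) and Serpinh1 (1.97 ± 0.31), chaperones of procollagen, Plod1 (2.26 ± 0.43), a lysyl hydroxylase, and Lox (2.17 ± 0.44), which crosslinks fibrils. P4hb, a prolyl hydroxylase subunit that also serves other proteins, had 0.15 ± 0.16 and did not pass. Of 7 procollagen processing genes 4 rose, with Bmp1 (1.48 ± 0.24), Adamts2 (1.66 ± 0.28), Adamts14 (2.05 ± 0.56) and Pcolce (2.04 ± 0.30). Of 10 genes of collagen breakdown and its inhibitors 5 rose, Mmp2 (2.65 ± 0.24), Mmp14 (1.92 ± 0.18), Ctsk (2.94 ± 0.28), Mrc2 (1.85 ± 0.32) and Timp2 (2.24 ± 0.18). Of 8 fibril-associated proteoglycans 6 rose, the largest being Aspn (3.96 ± 0.41, adjusted p = 1.38e-07, edgeR), while Dcn had -0.19 ± 0.33 and did not pass.

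In the same comparison, the cell type marker lists had 3 of 7 fibroblast genes higher, 3 of 5 tested chondrocyte genes, 1 of 8 osteoblast genes (Ibsp), 1 of 6 endothelial genes and 1 of 6 macrophage genes, and lower were 3 of 6 neutrophil genes, 1 of 8 keratinocyte genes and 1 of 6 macrophage genes. None of the mural, Schwann or skeletal muscle genes was called. Over all genes 6.05% were higher and 2.49% lower, and no change of a cell type is read from a list with 1 call. Summed over the list, fibroblast markers ranged from 399 to 1333 CPM early and 528 to 2122 late, chondrocyte markers from 51.1 to 378 and 81.8 to 1977 (651 without the 2 digits that stood apart), and osteoblast markers from 5.75 to 403 and 24.3 to 715. Matn1, a cartilage matrix gene, was at 0 in all early digits. The part of these cells in the late rise of the collagen genes was not tested.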

How the data were processed

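Poly(A) RNA of 41 digits was read as single ends of 65 bases. Per the study's methods, reads were mapped to Ensembl mouse genes with Bowtie (up to 2 mismatches, 200 hits), and the submitters' processing notes name CASAVA, RSEM 1.2.3 and mm10. The authors deposited expected counts per gene from RSEM, which were rounded to whole numbers here. The authors also deposited a per-length signal, TPM scaled by the median-by-ratio method, in which levels of different genes were set side by side. Whether counting used strand is not given in the sources used here. In the files 26 gene names turned into dates were restored. Libraries held 1468749 to 13011782 counts.

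Counts were tested with edgeR 4.0.16 in R 4.3.3 (filterByExpr, TMM, quasi-likelihood F test), in 1 fit over the 9 NR times, in a fit per pair of groups, and in 1 fit for the difference of the Int and NR changes. A call needed a Benjamini-Hochberg adjusted p below 0.05 over all genes tested and more than a 2-fold ratio of group means, except for the difference of changes, where the adjusted p alone was used. The authors compared groups with EBSeq, which was not run here. SE is that of the log2 fold change. Ratios of normalized TPM were tested with two-sided permutation tests (scipy 1.17.1, 100000 resamples, or exact), adjusted over 9 tests. The scripts were checked on simulated data. Named genes were a listed core, the most abundant member of each class, and the largest called change per comparison, 19 in all. Others named are called members, members that complete a class and genes of the other lists, some of which did not pass. The members, the lists, the ratios and the early and late phases were chosen with earlier results of these data known. Groups came from the labels, with replicates numbered in accession order. Among the 46 pairs of libraries within a group no 2 were duplicates, and pairs across groups were not checked. Alternatives were DESeq2 1.42.0, limma 3.58.1 on log2(normalized TPM + 1) or + 0.1, RLE scaling, no low-count filter, no fold limit, a date-period term, all 41 digits in 1 fit, only digits above 67%, and each digit left out. The macrophage libraries were not used here.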

Additional observations from a re-analysis of the deposited data

How the results depend on the processing

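The rise from the early to the late NR digits was the steadiest count, 24 members by edgeR and 23 to 25 with any 1 digit left out, and the count over the course was 21 to 26. Counts against 0 h rested on single digits. Leaving out 1 digit gave 0 to 1 for early against 0 h, 1 to 16 for late against 0 h, 0 to 1 at 6 h, 3 to 12 at 12 h, 6 to 14 at 24 h, 0 to 5 at 3 d, 0 to 6 at 7 d, 0 to 20 at 14 d and 0 to 16 at 21 d in NR, 3 to 22 at 14 d and 5 to 23 at 21 d in Int, and 0 to 4 at 24 h and 0 to 1 at 21 d for Int against NR. With 3 digits a group, these counts follow the spread of few libraries.

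With only digits labelled above 67%, the course gave 16 and late against 0 h 0, but this leaves 1 digit at 0 h and none at 12 h, so the 0 rests on a single reference digit and the course lacks a time point. DESeq2 called 1 for early against 0 h, 17 for late against 0 h, 1 at 3 h, 7 at 3 d, 12 at 7 d and 18 at 14 d in NR, 1 at 24 h in Int and 1 for Int against NR at 24 h. Without NR 7 d replicate 2 and NR 14 d replicate 2, an alternative chosen after seeing the data, the counts were 2 for early and 17 for late against 0 h, 6 at 7 d and 20 at 14 d. With the later period alone, likewise chosen after seeing the data, the count at 21 d was 6. The date period as a further term gave 1 for early against 0 h. All 41 digits in 1 fit gave 1 for early against 0 h, 0 at 6 h, 2 at 12 h, 1 at 24 h, 1 at 3 d, 11 at 7 d, 20 at 14 d and 4 at 21 d in NR, and 12 at 14 d and 5 at 21 d in Int. With the period as a further term that fit gave 1 for early against 0 h, 1 at 3 h, 0 at 6 h, 2 at 12 h, 3 at 24 h, 1 at 3 d, 11 at 7 d and 22 at 14 d in NR, and 12 at 14 d and 5 at 21 d in Int. RLE scaling, no low-count filter and no fold limit moved no count by over 1.5 times.

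Among the 19 named genes, 2 that did not pass late against early changed sign. Col28a1 (-0.07) had 0.0081 under RLE scaling, 0.032 with the period term, 0.10 without the 2 digits that stood apart, 0.0072 with DESeq2, 0.017 in the fit of all 41 digits with the period term, and -0.20 to 0.15 with 1 digit left out. Col4a6 (0.09) had -0.58 with only digits above 67% (none at 12 h), -0.15 and -0.31 with limma at pseudocounts of 1 and 0.1, and -0.24 to 0.26 with 1 digit left out. The cause was not tested. No paired analysis was possible because the digits' labels name no animal and carry no replicate numbers. The macrophage libraries, whose labels carry numbers, were not compared. Some NR and Int digits of 0 h, 24 h and 14 d share a date, and the date as a block, added after seeing the data, called 0 members at each of these times.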
